A study of Homo sapiens with 6 samples.

Results

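Ubiquitin is a small protein that cells attach to other proteins, most often as a chain that sends them to the proteasome. The genes described here are 6 that supply or handle it: UBB and RPS27A, which encode ubiquitin, UBA1 and UBA6, the E1 enzymes that activate it for transfer, and ZFAND2A and ZFAND5, zinc finger proteins of the AN1 type that work with the proteasome and the ubiquitin-dependent ATPase p97. They were found by symbol among the 23858 genes of the deposited expression table, and all 6 were present once. RNA was sequenced from NB4, an established human cell line of acute promyelocytic leukaemia with the PML-RARA fusion, in 3 control libraries and 3 libraries of cells given arsenic trioxide, a drug against this leukaemia, for 6 h. No dose, genotype change or other agent is named in the sources used here, and NB4 is a single line grown in culture. Nothing says that the 3 libraries of a group came from separate cultures, and each p-value therefore reflects only how far these libraries spread, which may be technical.

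No gene codes for free ubiquitin alone. It is made as a chain of ubiquitin units joined head to tail, from a polyubiquitin gene such as UBB, or as a single unit fused to a ribosomal protein, from a fusion gene such as RPS27A, and proteases then release it. An E1 enzyme activates ubiquitin with ATP and hands it to one of many E2 conjugating enzymes, from which a ligase places it on its target. Polyubiquitin genes are textbook stress genes, whereas the fusion genes also supply the ribosome, and ZFAND2A is known under the name AIRAP for its induction by arsenite.

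The coding sequences show how UBB and RPS27A differ as sources of the same protein, and are given for that reason. In the reference annotation (GENCODE 29, GRCh38) the coding sequence of the main UBB transcript, UBB-201 (chromosome 17, plus strand, 1 coding exon), falls into 3 units of 228 bases, followed by 1 further residue. The coding sequence of RPS27A-201 (chromosome 2, plus strand, 5 coding exons) starts with a stretch of the same length and goes on for 80 residues of the ribosomal protein. Lines run 5′ to 3′, and capitals mark bases that differ from the first UBB unit.
UBB unit 1: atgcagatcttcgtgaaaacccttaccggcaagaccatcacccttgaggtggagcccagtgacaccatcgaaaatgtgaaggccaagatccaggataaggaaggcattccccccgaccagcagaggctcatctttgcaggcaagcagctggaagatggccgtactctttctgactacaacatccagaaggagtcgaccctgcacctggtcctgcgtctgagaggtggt
UBB unit 2: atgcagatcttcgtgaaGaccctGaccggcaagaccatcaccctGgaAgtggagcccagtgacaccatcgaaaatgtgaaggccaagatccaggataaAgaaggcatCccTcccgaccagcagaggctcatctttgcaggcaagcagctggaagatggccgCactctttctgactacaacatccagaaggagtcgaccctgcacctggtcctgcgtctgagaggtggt
UBB unit 3: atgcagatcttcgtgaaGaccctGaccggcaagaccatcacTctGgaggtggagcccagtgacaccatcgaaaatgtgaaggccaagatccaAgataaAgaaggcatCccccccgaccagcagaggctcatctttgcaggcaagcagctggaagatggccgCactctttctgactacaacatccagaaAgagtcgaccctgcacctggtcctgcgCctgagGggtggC
RPS27A ubiquitin part: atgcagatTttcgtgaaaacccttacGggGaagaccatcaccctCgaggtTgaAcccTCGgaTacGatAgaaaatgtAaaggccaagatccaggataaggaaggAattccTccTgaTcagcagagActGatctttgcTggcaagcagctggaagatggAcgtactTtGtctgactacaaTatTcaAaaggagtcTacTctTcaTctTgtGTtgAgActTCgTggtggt
All 4 stretches encode the same 76 residues. UBB units 2 and 3 differ from unit 1 at 8 and 12 bases, all of them at the last position of a codon, and the RPS27A stretch differs at 38 bases, 32 of them at that position. The longest exact run shared by 2 UBB units is 77 bases, and the longest shared by a UBB unit and RPS27A is 26 bases. Reads inside the repeats can thus match more than 1 place within UBB, and neither the read length nor the handling of such reads is stated in the labels. The level of UBB is uncertain to that extent. RPS27A has processed copies elsewhere in the genome, among them RPS27AP3 in this table, which could take some of its reads.

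Recovered totals were 19361333 to 22609019 reads per library, and control replicate 1 and arsenic trioxide replicate 3 stood apart from the other 4 libraries on the second principal component (21.3 and 23.0 against -14.8 to -6.9, 15.2% of the variance). Of 7 promyelocyte markers 6 were listed, with a summed level of 1039 to 1435 RPKM in control and 689 to 1041 RPKM after arsenic trioxide, while the listed markers of T cells (1 of 5), B cells (3 of 5), erythroid cells (1 of 5) and adherent cells (2 of 6) summed to at most 7.87 RPKM in any library. The summed promyelocyte ranges of the 2 groups overlapped, and a difference in these markers, or its part in the results, was not tested. RPKM are read numbers relative to exon length and library size, so values are relative to each library's own total, and in such bulk samples fewer cells of a type and less RNA per cell cannot be told apart.

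After 6 h of arsenic trioxide, UBB, ZFAND2A and ZFAND5 rose, and no change was detected in RPS27A, UBA1 or UBA6. All 6 genes passed the filter of a mean of 1 RPKM, and 3 of 6 were called higher and 0 lower by limma-trend (Benjamini-Hochberg adjusted p under 0.05 over 16803 genes). Among all tested genes 12.0% were called higher and 13.4% lower. Limma-voom on the recovered reads also called 3 higher and 0 lower, and an unadjusted p under 0.05 was reached by the same number, 3 and 0. The treated libraries lay wholly above the controls for these 3 genes, a pattern that 21.9% of all tested genes showed, and they lay wholly below for 0 of the 6 (22.6% of all tested genes).

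**Figure D1:**
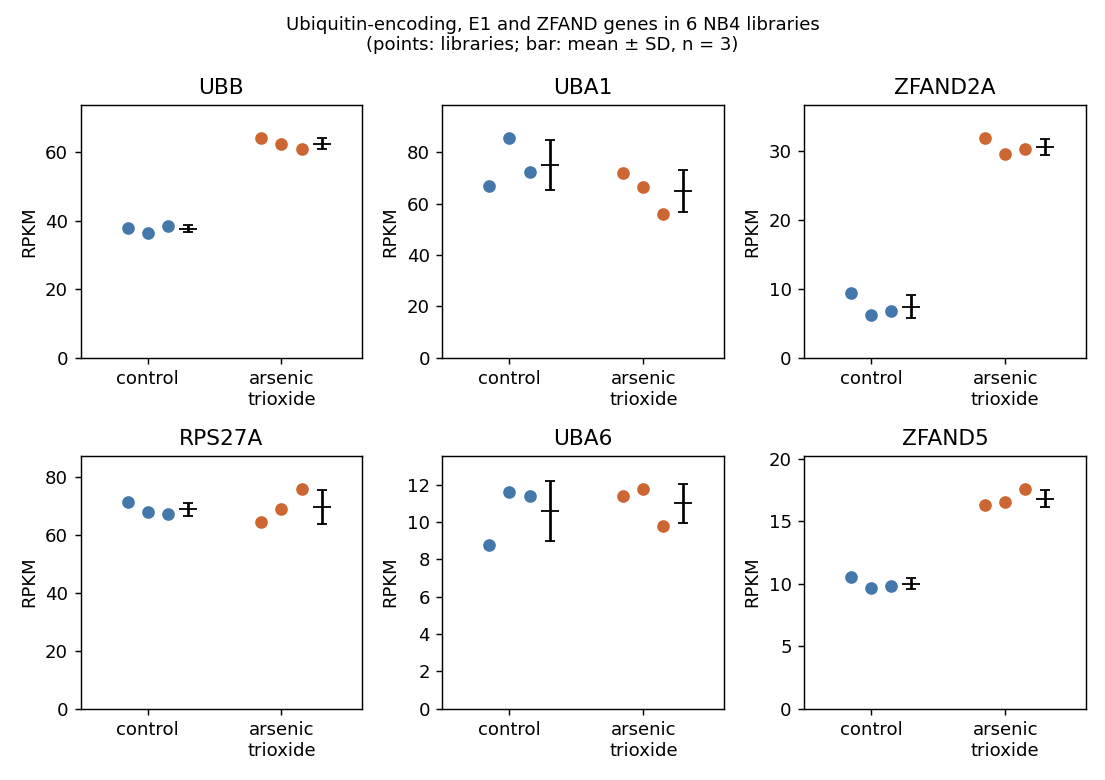
RPKM of each gene (vertical axes, starting at 0) in 3 control and 3 arsenic trioxide libraries, with points for libraries and a bar for the mean ± SD (n = 3). The treated points of UBB (61.0 to 64.2), ZFAND2A (29.7 to 32.0) and ZFAND5 (16.3 to 17.6) lie above all control points, and the points of RPS27A, UBA1 and UBA6 overlap between the groups.

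UBB (ENSG00000170315, chromosome 17, 16380798 to 16382745) was at 37.8, 36.4 and 38.4 RPKM in control replicates 1, 2 and 3, and the treated libraries with the same numbers had 64.2, 62.4 and 61.0 RPKM. The libraries of each group lay close together and the groups were far apart. The control mean was 37.6 ± 1.04 RPKM and the treated mean 62.5 ± 1.59 RPKM (SD, n = 3 each, as for all means here), a ratio of 1.66, with a log2 fold change of RPKM + 1 of 0.72 ± 0.05 SE (limma-trend adjusted p = 0.000405). The 95% confidence interval of the fitted change was 1.52- to 1.79-fold, and 94.9% of all tested genes had a lower fold change. These values rest on 1143 to 1409 reads in the control and 2142 to 2319 in the treated libraries. An antisense gene, AC093484.3, covers 28.4% of the exon bases of UBB, and since the library kit does not mark strand, reads from that stretch cannot be told apart.

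RPS27A (ENSG00000143947, chromosome 2, 55231903 to 55235853) was at 71.4, 68.1 and 67.2 RPKM in the controls and at 64.4, 69.0 and 76.1 RPKM in the treated libraries, in the order of the replicate numbers. The treated libraries reached both below and above every control. Its means were 68.9 ± 2.22 and 69.8 ± 5.90 RPKM (log2 fold change of 0.02 with an SE of 0.07, limma-trend adjusted p = 0.895). The 95% confidence interval of the fitted change, 0.900- to 1.14-fold, lies wholly below the interval of UBB. The sign of this small difference turned without control replicate 3 (-0.0024) and without arsenic trioxide replicate 3 (-0.05), the library with the highest value. Exons of CLHC1 on the other strand cover 5.7% of its exon bases. In the authors' deposited table, of the genes tested here, 13.3% are called higher and 16.0% lower. The adjusted p in the authors' deposited table is 3.01e-11 for UBB and 0.995 for RPS27A.

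The contrast between the polyubiquitin and the fusion gene was tested within libraries, where scaling between libraries cancels. The log2 ratio of UBB to RPS27A (each RPKM + 1) was -0.90, -0.89 and -0.79 in the controls and -0.00, -0.14 and -0.31 in the treated libraries. All treated ratios were higher, by 0.70 on average. As a geometric mean over libraries, UBB went from 0.551 to 0.899 of the RPS27A level in RPKM + 1. These shares depend on the exon length: over the main transcripts alone, UBB would be at 49.7 against 201 for RPS27A in control and at 82.7 against 204 after arsenic trioxide. The exact two-sided permutation test gave p = 0.1, the smallest p that 3 against 3 allows (0.133 after Benjamini-Hochberg adjustment over the 4 pairs compared here), so this design cannot pass 0.05 for a single ratio.

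Few of the other ribosomal protein genes were called, where 12.0% of all tested genes were called higher and 13.4% lower. Of 32 genes of the small subunit, all tested, 0 were higher and 2 lower (median log2 fold change -0.05), and of 46 genes of the large subunit 0 were higher and 1 lower (median -0.03), where the median of all tested genes was -0.0033. Limma-voom called 0 higher and 2 lower of the small subunit and 1 higher and 4 lower of the large subunit, and at an unadjusted p under 0.05 limma-trend had 0 and 4 and 2 and 7. The lower genes, named after their values were seen, were RPS10 (-0.51, limma-trend adjusted p = 0.00888), RPS29 (-0.36, 0.0429) and RPL26 (-0.38, 0.0221). RPS29 was no longer called when control replicate 1 (adjusted p = 0.103), control replicate 2 (0.127), control replicate 3 (0.0597), arsenic trioxide replicate 1 (0.1) or arsenic trioxide replicate 3 (0.0971) was left out. RPL26 was no longer called when control replicate 1 (0.0570), control replicate 3 (0.0802), arsenic trioxide replicate 1 (0.0568) or arsenic trioxide replicate 3 (0.0549) was left out, and without arsenic trioxide replicate 2 the large subunit had 2 lower genes. RPS10 lost its call, among the alternatives run, only without both control replicate 1 and arsenic trioxide replicate 3 (0.0514). The small subunit count was 1 lower gene without control replicate 2 or 3 or without arsenic trioxide replicate 1 or 3, and the large subunit count was 0 without control replicate 1 or without arsenic trioxide replicate 1 or 3.

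UBA1 is the main E1 enzyme, which charges nearly all E2 enzymes with ubiquitin. UBA1 (ENSG00000130985, chromosome X, 47190861 to 47215128) was at 66.9, 85.6 and 72.3 RPKM in the controls and at 71.9, 66.6 and 55.8 RPKM in the treated libraries. Control replicate 2 was the highest and arsenic trioxide replicate 3 the lowest, and the groups overlapped. The means were 74.9 ± 9.65 and 64.8 ± 8.18 RPKM (log2 fold change of -0.21 with an SE of 0.12, limma-trend adjusted p = 0.249), with an interval of 0.711- to 1.06-fold, so a fall of this size could not be told from the spread between libraries. The value was -0.11 without control replicate 2 or without arsenic trioxide replicate 3, and it was called in none of the alternatives run. UBA6, a second E1 that also activates the ubiquitin-like protein FAT10, lies on chromosome 4 (ENSG00000033178, 67612652 to 67701179). It was at 8.75, 11.6 and 11.4 RPKM in the controls and 11.4, 11.8 and 9.80 RPKM in the treated libraries, means of 10.6 ± 1.61 and 11.0 ± 1.06 RPKM. The lowest of these values belonged to control replicate 1 and arsenic trioxide replicate 3, the libraries that stood apart. Its log2 fold change was 0.05 ± 0.12 SE (adjusted p = 0.780, interval 0.846- to 1.27-fold) and -0.07 without control replicate 1.

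Within libraries, the log2 ratio of UBA1 to UBA6 was 2.80, 2.78 and 2.56 in control and 2.56, 2.40 and 2.39 after arsenic trioxide. The values of the groups met at 2.56, and the mean difference of -0.26 had an exact two-sided permutation p of 0.200 (0.200 after adjustment over 4 pairs). Of the 10 E1 genes for ubiquitin and its relatives, all tested, 0 were higher and 2 lower (median -0.07). Among all tested genes 12.0% were called higher and 13.4% lower. For the E1 genes, limma-voom and an unadjusted p under 0.05 gave the same counts. The lower genes were NAE1, a subunit of the E1 for NEDD8 (from 31.9 ± 1.92 to 26.0 ± 1.23 RPKM, a change of -0.28 on the log2 scale, limma-trend adjusted p = 0.0228), and MOCS3, which activates the ubiquitin-like URM1 (from 3.24 ± 0.396 to 2.01 ± 0.130 RPKM, -0.49, adjusted p = 0.0290). NAE1 lost its call without control replicate 2 (0.0773) or 3 (0.0772) and without arsenic trioxide replicate 1 (0.0511) or 3 (0.0579). MOCS3 lost it without control replicate 1 (0.0716) or 2 (0.0904) and without arsenic trioxide replicate 1 (0.0708), 2 (0.0839) or 3 (0.0555). The count of lower E1 genes was 0 without control replicate 2 or without arsenic trioxide replicate 1 or 3, and 1 without any other library.

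ZFAND2A had the largest change of the 6 genes. It (ENSG00000178381, chromosome 7, 1152071 to 1160759) was at 9.38, 6.25 and 6.73 RPKM in the controls and 32.0, 29.7 and 30.3 RPKM in the treated libraries. The groups were far apart, and control replicate 1 was the highest of its group. The means were 7.45 ± 1.68 and 30.6 ± 1.18 RPKM, a ratio of 4.11. The log2 fold change of RPKM + 1 was 1.92 with an SE of 0.13 (limma-trend adjusted p = 0.000405). The interval of this fitted change, not of the RPKM ratio, was 3.04- to 4.73-fold. ZFAND2A ranked 53 among all tested genes by log2 fold change. The reads behind it were 276 to 432 in control and 1435 to 1626 in treated libraries. Without control replicate 1 and arsenic trioxide replicate 3 the log2 fold change was 2.09 (adjusted p = 0.00360). The antisense gene AC091729.3 covers 4.9% of its exon bases.

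A stretch before the RefSeq start of ZFAND2A is shown because it holds a match to 2 adjoining units of the heat shock element, the element bound by the heat shock factor HSF1. The 250 bases before each start in RefSeq (GRCh38.p14) were searched on both strands for 6 motifs. They were the heat shock element of 3 alternating units, its 2-unit form in either arrangement (GAANNTTC and TTCNNGAA, each contained in the 3-unit form), the antioxidant response element core (TGACNNNGC), the CCAAT box (CCAAT) and the cAMP response element (TGACGTCA). All 6 genes matched a window in that table. In GENCODE 29, which the RPKM lengths follow, all 250 bases of the ZFAND2A window lie in annotated exons of that gene, so the stretch is upstream of the RefSeq start but exonic in that annotation. In ZFAND2A, TTCNNGAA matched 171 to 164 bases before the start, inside this stretch on the minus strand of chromosome 7 (1160349 to 1160378), 5′ to 3′ with the match in capitals.
ZFAND2A site: cgaccggacacTTCGAGAAgggaagtggag
The same letters occur in 6.62% of the 35116 windows, and the other 2-unit arrangement searched, GAANNTTC, in 5.78%. The motifs were chosen after the sequences were seen. The window also holds the letters TGACNNNGC once (10.9% of windows) and CCAAT in its reverse form at 2 places, 111 to 107 and 47 to 43 bases before the start (32% of windows). The UBB windows, each with 145 of 250 bases in annotated exons of UBB, hold a CCAAT match and, from the later start, a TGACNNNGC match. In ZFAND5 the TGACNNNGC matches lie in the window of the most upstream start (27 exonic bases). Its CCAAT matches lie in the other windows (219 exonic bases each). None of these 6 motifs was found in the windows of UBA1 and UBA6. For RPS27A only CCAAT was found, in the window of its most upstream start (0 exonic bases). Its other windows lie wholly in its annotated exons and hold none of the motifs. The 3-unit heat shock element was found in no window of the 6 genes, and in 0.441% of all windows. No binding was measured, and a match here describes letters only.

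ZFAND5, known from muscle wasting as a protein that binds ubiquitin and the proteasome, also rose, with a smaller fold change than ZFAND2A. ZFAND5 (ENSG00000107372, chromosome 9, 72351425 to 72365235) was at 10.5, 9.64 and 9.84 RPKM in the controls and 16.3, 16.5 and 17.6 RPKM in the treated libraries. The spread inside each group was small against the gap between them. The means were 10.0 ± 0.468 and 16.8 ± 0.710 RPKM, a ratio of 1.68 (log2 fold change of 0.69 with an SE of 0.07, limma-trend adjusted p = 0.00128, interval of the fitted change 1.44- to 1.81-fold). This change is close in size to that of UBB. The log2 ratio of ZFAND2A to ZFAND5 was -0.15, -0.55 and -0.49 in control and 0.93, 0.81 and 0.75 in treated libraries, so ZFAND2A passed from below ZFAND5 to above it in RPKM. Over the main transcripts alone ZFAND2A would be above ZFAND5 already in control (19.8 against 13.3). That of ZFAND2A to UBB was -1.90, -2.37 and -2.35 in control and -0.98, -1.05 and -0.99 in treated libraries. The mean differences of 1.23 and 1.20 each had p = 0.1 in the exact two-sided permutation test, again the smallest possible (0.133 after adjustment over 4 pairs).

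**Figure D2:**
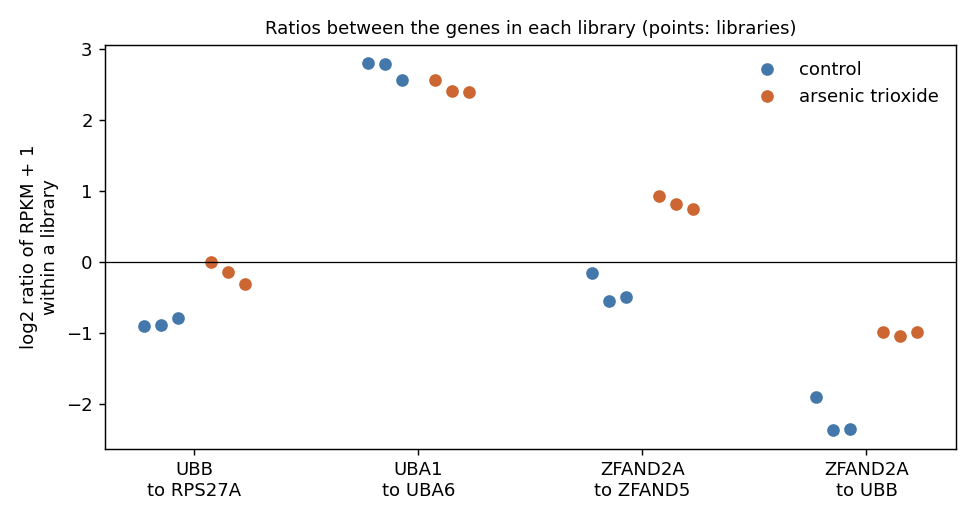
Log2 ratio of RPKM + 1 between 2 genes in the same library (vertical axis) for 3 control (blue) and 3 arsenic trioxide (orange) libraries. The groups lie apart for UBB to RPS27A (difference 0.70), ZFAND2A to ZFAND5 (1.23) and ZFAND2A to UBB (1.20), and meet at 2.56 for UBA1 to UBA6.

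Most of the ZFAND family moved in the same direction. Among all tested genes 12.0% were called higher and 13.4% lower. Of the 7 genes of the family 6 were tested, and 5 of 6 rose and 0 fell (median log2 fold change 0.63), also in limma-voom and at an unadjusted p under 0.05. Besides ZFAND2A and ZFAND5 these were ZFAND6 (from 12.0 ± 0.414 to 19.5 ± 1.22 RPKM, 0.65), ZFAND3 (from 7.72 ± 0.543 to 12.3 ± 0.731 RPKM, 0.61) and ZFAND2B (from 3.47 ± 0.488 to 5.04 ± 0.136 RPKM, 0.44, limma-trend adjusted p = 0.0339), the relative of ZFAND2A that is anchored in membranes. ZFAND2B was no longer called when control replicate 1 (0.0769), control replicate 3 (0.0727) or arsenic trioxide replicate 1 (0.0970), 2 (0.0783) or 3 (0.0729) was left out, and the count of higher genes was then 4. ZFAND3, ZFAND2B, ZFAND1 and ZFAND4 are named beyond the rule for naming genes, after their values were seen. The exception was ZFAND1, which brings p97 and the proteasome to stress granules, at 10.6 ± 0.636 and 10.7 ± 0.999 RPKM (0.01, adjusted p = 0.919), a value that turned to -0.03 without control replicate 3 and -0.05 without arsenic trioxide replicate 2. ZFAND4 was under the filter, at 0.514 ± 0.0273 and 0.717 ± 0.152 RPKM.

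In order of RPKM the controls ran UBA1 (74.9), RPS27A (68.9), UBB (37.6), UBA6 (10.6), ZFAND5 (10.0) and ZFAND2A (7.45). The libraries of UBA1 and RPS27A overlapped, and so did those of UBA6 and ZFAND5, while ZFAND2A lay below ZFAND5 in every control. After arsenic trioxide the order was RPS27A (69.8), UBA1 (64.8), UBB (62.5), ZFAND2A (30.6), ZFAND5 (16.8) and UBA6 (11.0), and the first 3 overlapped with their neighbours. These levels divide by all exon bases of a gene, 3130 for RPS27A and 2281 for ZFAND2A, where the main transcripts have 1071 and 860 bases. If all reads came from the main transcript, the control levels would be 201 RPKM for RPS27A, 136 for UBA1, 49.7 for UBB, 19.8 for ZFAND2A, 13.3 for ZFAND5 and 12.7 for UBA6, so the order of genes depends on the length used. The ratio of treated to control RPKM of a gene does not depend on it, but the log2 fold change of RPKM + 1 does slightly, through the pseudocount.

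Of the enzymes that take ubiquitin from E1, 30 of 31 E2 genes were tested, and 5 rose and 4 fell (median log2 fold change -0.04), shares near those of all genes. Limma-voom gave 5 and 4, and an unadjusted p under 0.05 gave 5 and 6. UBE2H (0.68, limma-trend adjusted p = 0.0157), UBE2B (0.39, 0.0187) and BIRC6 (0.19, 0.0299) had the smallest p-values among those that rose. UBE2N, which builds lysine-63-linked chains with UBE2V1 as its partner (from 44.4 ± 1.12 to 33.3 ± 1.06 RPKM, -0.40, adjusted p = 0.00286), UBE2G2, which serves degradation from the endoplasmic reticulum (from 29.2 ± 0.355 to 21.1 ± 1.20 RPKM, -0.45, 0.00314), and UBE2S, the chain-extending E2 of the anaphase-promoting complex (-0.49, 0.0154), fell. The count of higher E2 genes was 2 without control replicate 1, 2 or 3 or without arsenic trioxide replicate 1 or 3, and 0 without arsenic trioxide replicate 2, where UBE2H (0.0523), UBE2B (0.0596) and BIRC6 (0.0822) lost their calls. With median-ratio scaling of the libraries the count was also 2, and BIRC6 was not called (0.0608). BIRC6 also lost its call without control replicate 1 (0.0737), 2 (0.0746) or 3 (0.0958) and without arsenic trioxide replicate 1 (0.0760) or 3 (0.0563). The E2 genes thus moved in both directions, and their difference from the other lists was not tested.

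The genes of p97, the ATPase that pulls ubiquitinated proteins out of complexes and membranes, and of its cofactors rose in 9 of 15 members and fell in 0, with a median of 0.26. Among all tested genes 12.0% were called higher and 13.4% lower, the shares to set beside both lists described here. For the p97 list the counts at an unadjusted p under 0.05 were 10 and 0, and limma-voom gave 9 and 0. The count of higher genes was 6 without control replicate 1 or without arsenic trioxide replicate 1, 7 to 8 without any other library, and 8 with median-ratio scaling. UBXN4, a cofactor in the endoplasmic reticulum membrane, rose from a mean of 29.3 ± 1.27 to one of 53.1 ± 1.76 RPKM (0.83, limma-trend adjusted p = 0.000368), NPLOC4 from 25.1 ± 1.63 to 44.5 ± 4.32 RPKM (0.80, 0.00159) and NSFL1C from 21.1 ± 1.06 to 32.4 ± 1.35 RPKM (0.59, 0.00153). VCP, the gene of p97 itself, chosen here with its values in view, rose from 131 ± 3.50 to 157 ± 11.5 RPKM (0.26, 0.0316), a call lost without control replicate 1 (0.0835), 2 (0.0718) or 3 (0.0802) and without arsenic trioxide replicate 1 (0.0932) or 3 (0.0809). Of the shuttle receptors, which carry ubiquitinated proteins to the proteasome or to autophagy, 8 were counted, of which 3 rose and 2 fell (median 0.03), with the same counts in limma-voom and at an unadjusted p under 0.05. SQSTM1 rose from 6.92 ± 1.62 to 33.5 ± 10.9 RPKM, a ratio of 4.84 (limma-trend adjusted p = 0.00175), UBQLN1 by 0.48 on the log2 scale and the autophagy receptor NBR1 from 5.40 ± 0.582 to 8.32 ± 1.13 RPKM (0.54, 0.0212), while DDI2, a protease that activates the proteasome gene regulator NRF1, fell from 17.1 ± 0.525 to 10.3 ± 0.331 RPKM (-0.68, adjusted p = 0.00105) and UBQLN4 from 37.0 ± 0.893 to 29.2 ± 2.71 RPKM (-0.33, 0.0194). NBR1 was no longer called when control replicate 1 (0.0584), control replicate 3 (0.0530), arsenic trioxide replicate 1 (0.0689) or arsenic trioxide replicate 2 (0.0667) was left out. The call of UBQLN4 was lost without control replicate 1 (0.0570) or 3 (0.0599) or without arsenic trioxide replicate 2 (0.0509), leaving 1 lower gene.

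Of 12 deubiquitinases that recycle ubiquitin or sit on the proteasome 11 were tested, and 2 rose and 0 fell in limma-trend (median 0.02), where limma-voom called 4 and 3 and an unadjusted p under 0.05 gave 4 and 3. Of all 16803 tested genes limma-trend called 12.0% higher and 13.4% lower, and limma-voom called 2504 and 2739 genes. PSMD14, which cuts chains from proteins entering the proteasome, rose from a mean of 23.9 ± 1.19 to one of 32.3 ± 0.532 RPKM (0.42, limma-trend adjusted p = 0.00362). USP14, its partner on the proteasome, rose from 29.9 ± 0.625 to 34.7 ± 1.47 RPKM (0.21, 0.0319), a call lost without control replicate 1 (0.0564), 2 (0.0988) or 3 (0.0973) and without arsenic trioxide replicate 1 (0.0501), 2 (0.0762) or 3 (0.0761), so that 1 higher gene was left in each case. It was also lost with median-ratio scaling (0.0537). Without arsenic trioxide replicate 2 the count of lower genes was 1.

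**Figure D3:**
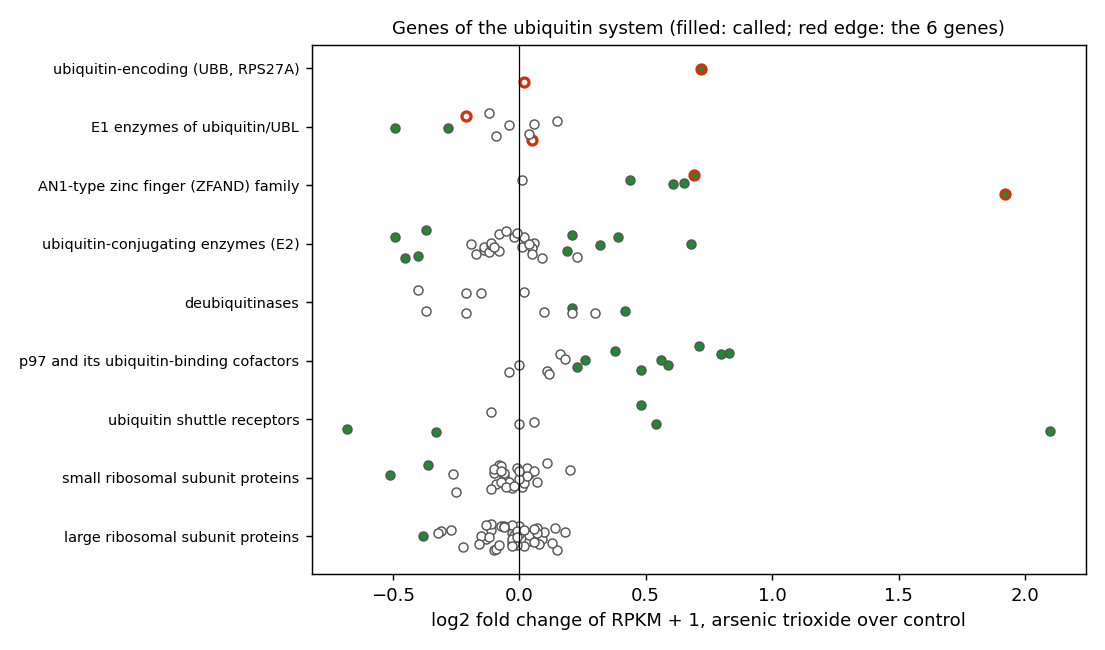
Log2 fold change of RPKM + 1, arsenic trioxide over control (horizontal axis), of each tested gene in 9 lists of the ubiquitin system and the ribosome (vertical positions within a list are spread at random). Filled points were called by limma-trend and points with a red edge are the 6 genes. The ZFAND family (median 0.63) and the p97 list (0.26) lie mostly to the right of 0, and both ribosomal lists (-0.05 and -0.03) lie around it.

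The genes most like each of the 6 in their pattern over the 6 libraries were taken from the 10158 other protein-coding tested genes, by the root mean square difference of log2(RPKM + 1) minus its control mean. For UBB they were UFD1L, the symbol in the table for the p97 cofactor UFD1 (difference 0.039, from 6.08 ± 0.185 to 10.6 ± 0.502 RPKM), the chaperone DNAJB6 (0.042, from 13.2 ± 0.616 to 22.0 ± 1.06 RPKM) and the chloride transporter CLCN3 (0.042). For ZFAND5 they were PSMC6, an ATPase subunit of the proteasome (0.037, from 13.5 ± 0.811 to 21.9 ± 1.01 RPKM), CSRNP2 (0.039) and the translation inhibitor EIF4EBP1 (0.040). For ZFAND2A the closest were PPP1R15A, the stress-induced phosphatase subunit (0.145, from 6.75 to 31.7 RPKM), GADD45A (0.145, from 1.51 ± 0.385 to 9.09 ± 0.789 RPKM) and AKR1C4 (0.172), all farther away than the neighbours of the other genes. The closest to RPS27A were NUCKS1 (0.015), CEP78 (0.026) and SCAF11 (0.029), to UBA1 KLHDC3 (0.038), TDP1 (0.043) and PEBP1 (0.043), and to UBA6, of which only these are given, XPNPEP3 (0.037) and YEATS4 (0.038), of which none was called.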

How the data were processed

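The authors deposited 1 table with the RPKM of each gene in 6 libraries of rRNA-depleted total RNA, a mean signal over the libraries, and their own comparison of the groups (log2 fold change, its standard error, test score, p-value before and after adjustment). Build hg38 and the tools HTSeq, DESeq2 and HISAT2 2.1.0 appear, with no roles given, in the submitters' processing notes, and per the file headers duplicate reads were removed. The members and lists were chosen with earlier results of these data known, and the motifs after the sequences were seen.

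RPKM were turned to log2(RPKM + 1), and the 16803 of 23858 genes whose mean reached 1 RPKM were fitted with limma 3.58.1 (limma-trend, R 4.3.3) on all 6 libraries, with Benjamini-Hochberg adjustment and 0.05 as threshold. The pseudocount of 1 understates the change of low genes. Whole reads were recovered from RPKM and GENCODE 29 exon lengths: all 6 values came out whole within 0.01 reads in 93.0% of genes from length alone, and in 100.0% with the deposited mean as a further guide. Limma-voom on these reads called 2504 genes higher and 2739 lower, against 2021 and 2252 by limma-trend. The code was tested on simulated data.

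Alternatives were median-ratio and upper quartile scaling, no filter, pseudocounts of 0.1 and 5, limma-voom, the replicate number as a block, each library left out in turn and, added after the data were seen, both libraries that stood apart left out. Named were the 6 genes, up to 3 called genes with the smallest p per list of the ubiquitin system and direction, and the 3 genes most like each of the 6. Some genes these rules would name or count are not reported here, so the lists are described without them. UCHL1 and ELANE were not analysed here. Ratios were tested with an exact permutation test over 20 assignments of the libraries.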

Additional observations from a re-analysis of the deposited data

How the results depend on the processing

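UBB, ZFAND2A and ZFAND5 were called higher under every alternative run, with log2 fold changes of 0.67 to 0.74, 1.53 to 2.09 and 0.54 to 0.75. RPS27A, UBA1 and UBA6 were called under none, but the sign of RPS27A turned without control replicate 3 (-0.0024), without arsenic trioxide replicate 3 (-0.05) and without both control replicate 1 and arsenic trioxide replicate 3 (-0.02), and that of UBA6 without control replicate 1 (-0.07). Leaving out single libraries gave -0.05 to 0.07 for RPS27A and -0.07 to 0.13 for UBA6. Leaving out 1 library gave 1331 to 1525 higher and 1427 to 1908 lower genes, and leaving out the 2 that stood apart gave 1200 and 1484. Of the genes most like RPS27A and UBA6, none of them called, NUCKS1 turned to -0.0050 with median-ratio factors, -0.01 without control replicate 3, -0.05 without arsenic trioxide replicate 3 and -0.02 without both libraries that stood apart. SCAF11 turned to -0.0006 with median-ratio factors, -0.02 without control replicate 2 and -0.03 without arsenic trioxide replicate 3, and CEP78 to 0.05 without arsenic trioxide replicate 1. XPNPEP3 turned to -0.02 without control replicate 1, and YEATS4 to -0.08 without control replicate 1, -0.01 without arsenic trioxide replicate 2 and -0.03 without both libraries that stood apart. Over single libraries left out, the highest values were 0.06 for SCAF11, 0.16 for XPNPEP3 and 0.08 for YEATS4, and the lowest for CEP78 was -0.06. ZFAND1 ranged from -0.05 without arsenic trioxide replicate 2, with -0.03 without control replicate 3, to 0.05. Without both libraries that stood apart, the counts were 1 for higher E2 genes and 6 for the p97 list. The cause was not tested.

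Whether the replicate numbers pair the libraries could not be decided. Same-numbered libraries had correlations of -0.085, 0.148 and -0.083 in their deviations from the group means, and differently numbered ones -0.158 to 0.221. The highest, 0.221, was between the 2 libraries that stood apart, so these values cannot exclude a pairing. Blocking on the replicate number gave 1460 higher and 1616 lower genes. The limma-trend adjusted p was then 0.00786 for UBB, 0.00454 for ZFAND2A and 0.0118 for ZFAND5. Each ratio had p = 0.250 in an exact sign-flip test, the smallest that 3 pairs allow. Under the block 0 E1 genes were lower (NAE1 0.0611, MOCS3 0.0765), 2 E2 genes higher (BIRC6 0.0871), 1 deubiquitinase higher (USP14 0.0872), 0 large subunit genes lower (RPL26 0.0685), 4 ZFAND genes higher (ZFAND2B 0.0788) and 7 genes of the p97 list higher (VCP 0.0810). With median-ratio factors 2 E2 genes and 1 deubiquitinase were higher and 2 large subunit genes lower.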
